A study of Arabidopsis thaliana with 27 samples.

Results

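Gene expression one day after a heat stress was examined on 12 of the 27 Affymetrix ATH1 arrays of the series, chosen by their group labels. These were the 3 Recovery24hr arrays and the 9 Control24hr arrays. All plants were wild-type Arabidopsis thaliana of ecotype Col-0, grown on agar plates at 22 °C in long days. Recovery24hr plants were kept at 38 °C for 24 h from an age of 18 days, were returned to 22 °C for 24 h and were harvested at 20 days. Control24hr plants were never heated and were harvested at 18, 19 or 20 days (3 arrays each). Both groups were taken 3 h after the onset of light. The other groups are used here only beside this comparison: Heat08hr (18 days), Heat24hr (19 days) and Recovery08hr (19 days), with 3 arrays each, and Control08hr, with 6 arrays from plants of 18 and 19 days. Heat24hr plants were also taken 3 h after the onset of light, whereas Heat08hr, Recovery08hr and Control08hr plants were taken 11 h after it. The labels give the tissue as leaf and the methods give aerial parts, and how many plants went into a sample is not given in the sources used here. Replicates are called biological in the labels.

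Plants answer heat by making heat shock proteins, chaperones that hold or refold damaged proteins and whose transcripts are driven by heat shock factors. Many other leaf transcripts follow the time of day, since the circadian clock, a loop of morning factors such as CCA1 and evening genes such as GI, ELF3 and ELF4, sets when photosynthesis, starch and cold-response genes are transcribed. During recovery, a leaf returns to the growth temperature, removes damaged components and takes up growth again. An array signal is the amount of a transcript relative to the other transcripts of the sample. Fewer cells of a type and less RNA per cell cannot be told apart in it.

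The values are MAS5 signals of 22746 probe sets. Their 2% trimmed mean was nearly the same on every array, and the array medians were 170.5 to 175.3 at Recovery24hr and 162.0 to 175.9 on Control24hr arrays. Between replicates, log2 differences had an SD of 0.385 to 0.568 at Recovery24hr and 0.272 to 0.442 between Control24hr arrays of the same age, against 0.837 to 0.878 between the Recovery24hr mean and the Control24hr means of the 3 ages. Of the leaf markers, 3 of 6 had a named probe set, and their summed signal was 34198 to 47061 at Recovery24hr and 73285 to 97494 on Control24hr arrays. These 3, SBPASE, RCA and LHCB4.1, are photosynthesis genes reported again below, so the sum is no separate measure of the tissue. The 2 named root markers of 6 summed to 1102 to 1291 and 674.8 to 1563. The 2 named seed markers of 5, the oleosins OLEO1 and OLEO2, summed to only 13.3 to 32.1 and 20.5 to 89.1, and no flower marker was named. One control array, of 18 days and replicate 1, stood apart. Among 13254 probe sets it lay far above the other 8 control arrays in 285, against 18 to 165 for each of the others, and its highest values included defence and senescence genes such as PR1 and SAG13.

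At Recovery24hr, 1410 probe sets were higher and 1674 lower than in Control24hr. The call asked for a 2-fold difference and an adjusted p below 0.05 (limma, Benjamini-Hochberg over all probe sets), and these are 6.20% and 7.36% of those tested. Such probe sets are said below to have risen or fallen. Counts within gene lists below are to be read beside these shares. The balance of rises and falls depended on dim probe sets: 1264 rose and 1043 fell among those that averaged 100 or more in either group, and with 16 added to each signal 1274 rose and 1137 fell. With no fold limit, 4126 (18.1%) were higher and 4181 (18.4%) lower. All 3 Recovery24hr arrays lay above all 9 control arrays for 3273 probe sets (14.4%) and below them for 3079 (13.5%). The median log2 fold change over all probe sets was -0.07. A single gene could be named for 788 of the risen and 1019 of the fallen probe sets. Without the control array that stood apart, 1487 probe sets rose and 1684 fell.

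The Recovery24hr arrays were not equally far from the controls. Among probe sets that rose to a mean of 100 or more, replicate 1 was the highest of the 3 in 717 of 1228, and replicate 3 was the lowest in 827. Among those that fell, replicate 1 was the lowest in 675 of 1037 and replicate 3 the highest in 750. The median log2 difference from the control mean was 1.71, 1.61 and 1.32 on replicates 1, 2 and 3 for the risen probe sets and -1.64, -1.40 and -1.11 for the fallen ones. Over all 14056 probe sets of that brightness it was 0.05, 0.05 and 0.04. Values per array are therefore given below in the order of replicates 1, 2 and 3, and for Control24hr as the lowest, median and highest of 9 arrays.

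Of the 12 largest rises, 2 were of small heat shock proteins, 1 was of an expansin-like protein and 9 were of genes known here by identifier. ATHSP22.0 (AT4G10250), a small heat shock protein of the endoplasmic reticulum, had signals of 7918, 3619 and 1534 at Recovery24hr, against 15.8, 55.1 and 104 in Control24hr, a log2 fold change of 6.32 ± 0.62 (SE, adjusted p = 1.7e-05). AT2G29500, annotated as a putative small heat shock protein, had 6560, 3899 and 1682, against 24.3, 61.1 and 132 (5.69 ± 0.51, adjusted p = 9.34e-06). Separate arrays were a condition for being counted among these 12, and replicate 1 was the highest for both. EXLA1 (AT3G45970), an expansin-like protein, had 1936, 1068 and 350 at Recovery24hr and 1.94, 28.7 and 38.4 in Control24hr. For AT1G48720, which was at or near the lowest value of the table on the control arrays (1, 1 and 6.82), the Recovery24hr signals were 2183, 1929 and 926, and no fold is given. The other 8 were AT4G12490, AT3G02480, AT3G17520, AT2G38465, AT3G15720, AT4G23493, AT1G10260 and AT4G39320, with log2 fold changes of 5.43 (AT4G39320) to 6.57 (AT4G12490). Several had controls near the lowest value of the table, so the size and rank of these changes are uncertain. Control medians were 3.63 for AT3G17520, 5.20 for AT1G10260 and 5.83 for AT4G23493. Under the alternatives, log2 fold changes went down to 3.76, 3.75 and 4.06 in these, and to 4.21 in AT2G38465. On the control array that stood apart, AT4G12490 reached 503 and AT3G17520 42.8. Without it their log2 fold changes were 7.19 and 6.43.

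The 12 largest falls were mostly of genes known here only by identifier. AT1G66100 had 52.1, 87.9 and 279 at Recovery24hr and 6590, 8323 and 9428 in Control24hr, a log2 fold change of -6.23 ± 0.36 (adjusted p = 6.74e-07). THI2.2 (AT5G36910), a thionin, a class of small defence peptides, had 50.9, 52.2 and 67.0 against 584, 637 and 741 (-3.51 ± 0.10, adjusted p = 1.28e-08). Separate groups were a condition for being counted among these 12 as well, and the 3 Recovery24hr arrays of THI2.2 lay close together. PRB1 (AT2G14580), annotated as a putative pathogenesis-related protein of the PR1 type, fell to 3.78, 33.6 and 11.2, against 75.3, 139 and 202. With the 20-day controls alone its log2 fold change was -2.94, with an adjusted p of 0.0602. AT2G47880, annotated as a putative glutaredoxin, had a log2 fold change of -4.34 ± 0.43 (adjusted p = 1.81e-05). The remaining 8 were named by identifier alone: AT1G70985, AT4G01390, AT4G02850, AT5G55570, AT1G64360, AT3G16670, AT4G22490 and AT3G05730, with log2 fold changes from -5.52 (AT1G70985) to -3.46 (AT3G05730).

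**Figure D1:**
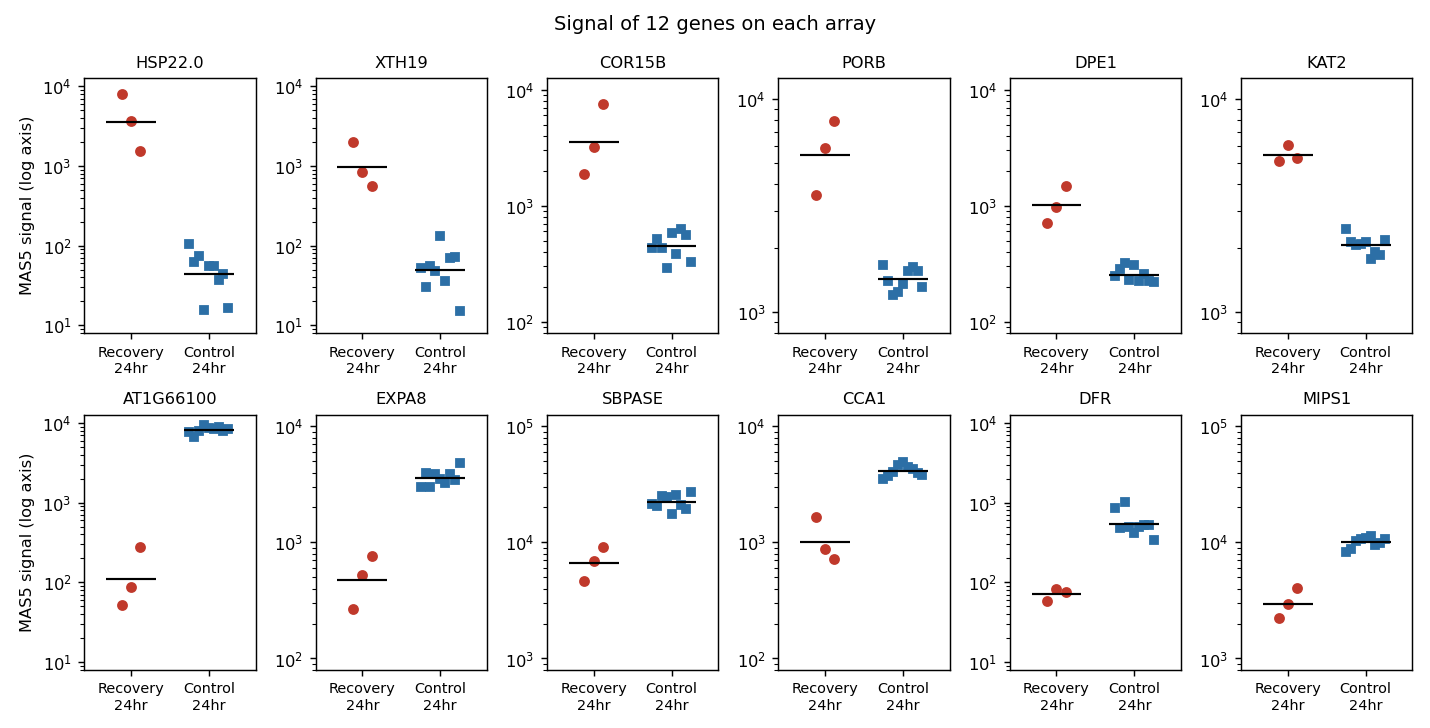
MAS5 signal (log axis) of 12 genes on each array, with Recovery24hr as red circles (replicates 1 to 3 from left to right) and Control24hr as blue squares. Lines are geometric means. ATHSP22.0 is shown as HSP22.0. In all 12 genes the groups do not overlap, and the Recovery24hr circles are spread more widely for ATHSP22.0 (1534 to 7918) than for KAT2 (5116 to 6087).

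Heat shock proteins and heat shock factors remained above control for most of the named members. Of 12 members with a named probe set (38 on the list), 8 rose and 0 fell. Their median log2 fold change was 2.26, against 6.82 at Heat08hr and 7.13 at Heat24hr, each against its own controls, and all 12 had risen at Heat08hr (8.38% of all probe sets had) and at Recovery08hr (14.0%). Replicate 1 was the highest Recovery24hr array for 11 of the 12 and replicate 3 the lowest for 11, with medians of 3.23, 2.23 and 1.33 on replicates 1, 2 and 3.

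AT1G53540, on the list with no other name here, had 2563, 1385 and 518 at Recovery24hr and 13.6, 53.9 and 86.6 in Control24hr (log2 fold change 4.81 ± 0.57, adjusted p = 6.25e-05). AT5G37670, another list member known here by its identifier, had 3213, 2037 and 965, against 53.7, 92.8 and 108 (4.44 ± 0.31, adjusted p = 2.22e-06). These groups did not overlap. BAG6, a calmodulin-binding co-chaperone, had 698, 445 and 298 against 10.2, 34.0 and 49.9 (3.98 ± 0.44, adjusted p = 3.82e-05). ROF2 (AT5G48570), a peptidyl-prolyl isomerase that binds HSP90, had 1474, 978 and 555 against 122, 182 and 282 (2.33 ± 0.31, adjusted p = 0.000156). HSA32 (AT4G21320), known for its part in long-term acquired thermotolerance, had 1497, 569 and 285 against 107, 145 and 195 (2.19 ± 0.37, adjusted p = 0.000754). All 3 arrays of HSA32 lay above the controls. With the 20-day controls alone its log2 fold change of 2.23 had an adjusted p of 0.0637. Hop3, which links HSP70 to HSP90, rose to 380, 254 and 115 at Recovery24hr, against 49.5, 68.7 and 131 in Control24hr. Here replicate 3 overlapped the controls, and with the 20-day controls alone the adjusted p was 0.144.

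The 4 members that did not pass were HSFA2, Fes1A, BOB1 and AT5G51440. HSFA2, the heat-inducible factor that sustains heat shock gene transcription, had 57.2, 2.58 and 23.1 at Recovery24hr and 5.19, 10.9 and 47.1 in Control24hr, so the groups overlapped (0.36 ± 0.84, adjusted p = 0.779). At Heat24hr the same probe set had 5257, 5000 and 4532. Fes1A had a log2 fold change of 0.39 and BOB1 of -0.01. AT5G51440 had 1.72 ± 0.98, with an adjusted p of 0.195.

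Set against Heat24hr, harvested at the same clock time, 11 of the 12 fell at Recovery24hr, 1 did not pass, and the median log2 difference was -3.89. Over all probe sets this comparison called 4275 (18.8%) higher and 2580 (11.3%) lower. Under quantile normalization it called 3300 higher and 3390 lower, and under median centring 2741 higher and 4922 lower, so the split between rises and falls depended on the scaling. The log2 difference of ATHSP22.0 was -2.36 ± 0.60 (adjusted p = 0.0254) and that of ROF2 -4.81 ± 0.37. The member that did not pass was AT5G37670, which had 4152, 3825 and 4582 at Heat24hr (-1.18 ± 0.45, adjusted p = 0.0891).

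**Figure D2:**
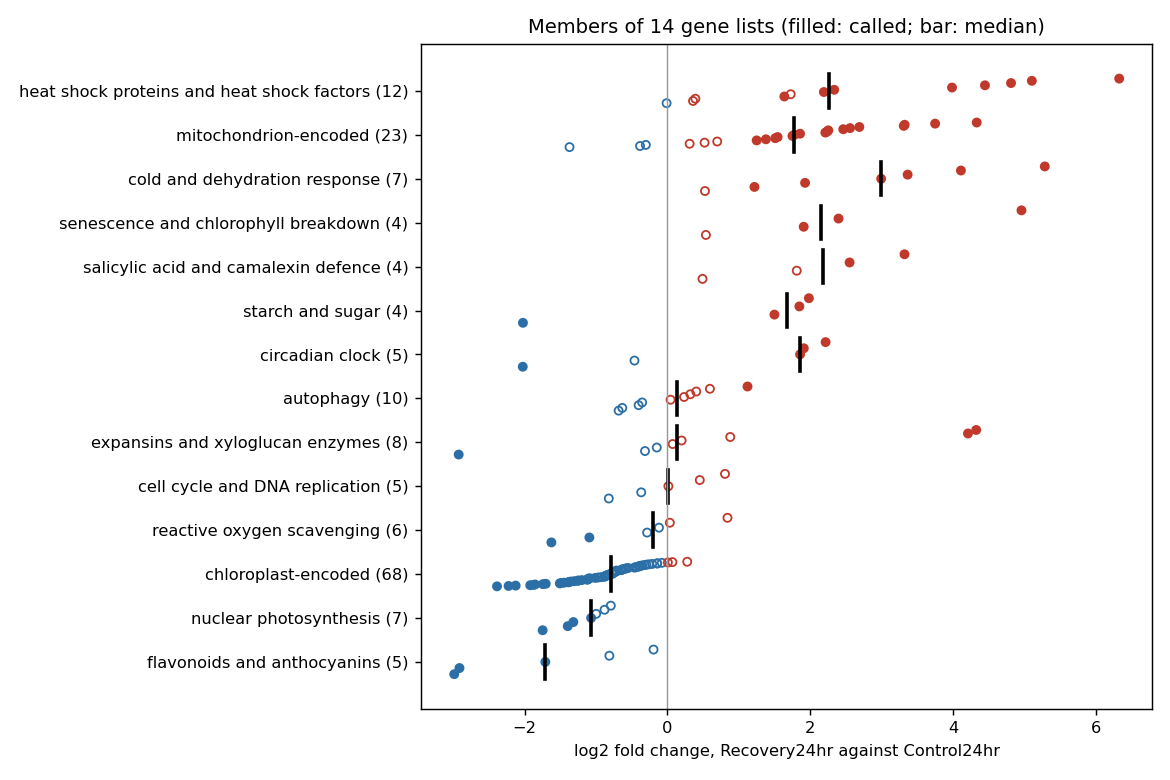
Log2 fold change of Recovery24hr against Control24hr for each named member of 14 gene lists (number of probe sets in brackets), with filled points for those that rose or fell, and bars at the medians. Heat shock members reach 6.32, whereas no chloroplast-encoded or nuclear photosynthesis member passed on the higher side.

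Probe sets for mitochondrion-encoded genes, which specify parts of the respiratory chain and of cytochrome c maturation, were also still raised. Of 23, 17 rose and 0 fell, with a median log2 fold change of 1.78, against 4.02 at Heat08hr, 5.45 at Heat24hr and 3.62 at Recovery08hr. The nuclear genome of Arabidopsis holds near-identical copies of much of the mitochondrial genome on chromosome 2, so which of them a probe set measures is uncertain. The gene list was chosen after values of these arrays were known.

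The signal of cox2, a subunit of cytochrome c oxidase, was 1080, 1106 and 467 at Recovery24hr and 37.4, 61.7 and 89.5 in Control24hr (3.75 ± 0.33, adjusted p = 8.39e-06). For cox1, of the same complex, it was 1613, 1443 and 926 against 257, 354 and 482 (1.86 ± 0.19, adjusted p = 2.78e-05). The groups did not overlap in either. The brighter of the 2 nad5 probe sets, for a subunit of complex I, gave 424, 196 and 219 against 33.3, 58.7 and 86.4, and at Heat24hr it gave 19238, 18614 and 19449. Against Heat24hr, 22 of the 23 were lower at Recovery24hr, with a median log2 difference of -3.47. The 6 probe sets that did not pass against Control24hr were those of nad2, nad4, ccb382 and orfX and 2 of the nad1 probe sets, whose log2 fold changes were -1.37 and 0.70. Replicate 3 was the lowest Recovery24hr array for 20 of the 23.

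**Figure D3:**
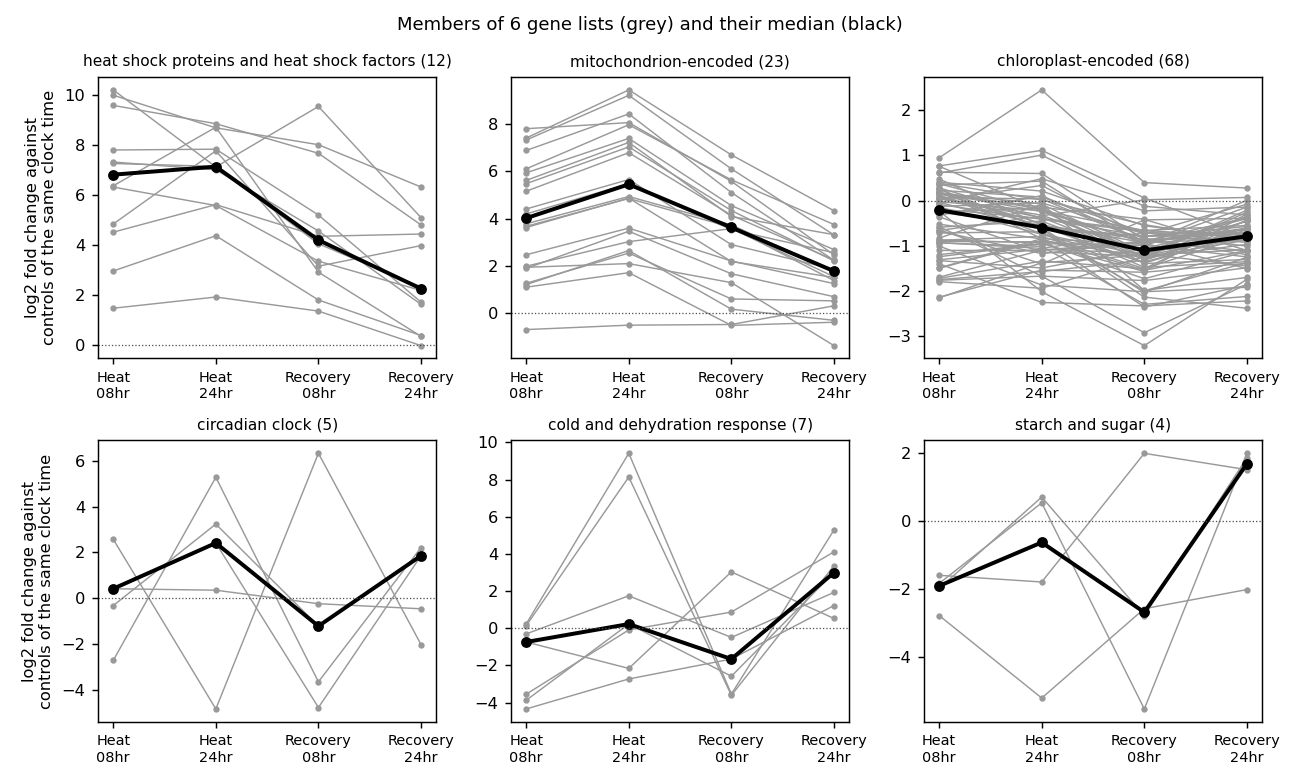
Log2 fold change against controls of the same clock time for the members of 6 gene lists at Heat08hr, Heat24hr, Recovery08hr and Recovery24hr (grey lines: probe sets, black: median). Heat24hr and Recovery24hr share the Control24hr arrays, and Heat08hr and Recovery08hr share the Control08hr arrays. The heat shock median is 7.13 at Heat24hr and 2.26 at Recovery24hr, whereas the starch median is below 0 at Recovery08hr and 1.67 at Recovery24hr.

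Genes of photosynthesis were lower at Recovery24hr. Of 7 named nuclear members (33 on the list), 0 rose and 4 fell, all 7 were lower with no fold limit, and the median log2 fold change was -1.07. Of 68 probe sets for chloroplast-encoded genes, 0 rose and 24 fell (56 lower with no fold limit), with a median of -0.79. Bright probe sets as a whole were lower at Recovery24hr. Of 243 probe sets that averaged 10000 or more over the 12 arrays, 0 rose and 63 fell (25.9%), with a median log2 fold change of -0.72, and the mean signal of an array was 672 to 688 at Recovery24hr and 734 to 771 in Control24hr. Under quantile normalization the median of the bright probe sets was -0.19 and 20 fell. The nuclear photosynthesis median was then -0.56 with 1 fallen, and the chloroplast-encoded median -0.52 with 20 fallen.

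SBPASE (AT3G55800), an enzyme of the Calvin cycle, had 4638, 6976 and 9129 at Recovery24hr and 17718, 21361 and 27415 in Control24hr, a log2 fold change of -1.75 ± 0.19 (adjusted p = 3.31e-05) and a 3.36-fold lower mean on the log scale. PRK, which makes the CO2 acceptor of that cycle, had 7036, 10456 and 13160 against 21928, 23778 and 29890 (-1.32 ± 0.17). LHCB4.2, an antenna protein of photosystem II, had 7548, 10598 and 12857 against 23601, 26794 and 29534 (-1.40 ± 0.14). None of the 3 overlapped between groups, and replicate 1 was the lowest of the Recovery24hr arrays each time. Replicate 3 was the highest for all 7 members. Under quantile normalization PRK and LHCB4.2 no longer reached 2-fold (log2 fold changes of -0.82 and -0.90, adjusted p = 0.00158 and 0.000313). RCA, which activates Rubisco, had 16352, 18385 and 20726 against 27495, 33944 and 39314 (-0.88 ± 0.13, adjusted p = 0.000272) and did not reach 2-fold, nor did PSAE-1 of photosystem I (-0.79). LHCB4.1, another antenna protein, was just short of it (14482 against 28790 on average) and passed under median centring (-1.06), but under quantile normalization its log2 fold change was -0.42. RCA and PSAE-1 did not pass at any fold under quantile normalization (-0.10, adjusted p = 0.331, and -0.16, adjusted p = 0.21).

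Among the chloroplast-encoded genes, the subunits of the NAD(P)H dehydrogenase complex, which carries cyclic electron flow, had the lowest median of the 7 groups of subunits. Of its 10 probe sets 8 fell, with a median log2 fold change of -1.44, and under quantile normalization 8 fell with a median of -1.40. For photosystem I 3 of 5 fell (median -1.09), for photosystem II 6 of 15 (-0.85), for cytochrome b6f 2 of 6 (-0.82) and for ATP synthase 2 of 6 (-0.76). Ribosomal proteins had a median of -0.40 with 1 of 15 fallen, and 0 of 4 RNA polymerase subunits fell. The ndhK signal was 1471, 1227 and 956 at Recovery24hr and 4392, 5545 and 7206 in Control24hr (-2.22 ± 0.17, adjusted p = 3.13e-06). It had been 1400, 1183 and 972 at Heat24hr, and the log2 difference between Recovery24hr and Heat24hr was 0.03 ± 0.23 (adjusted p = 0.924). The psbB signal, for a core protein of photosystem II, was 526, 568 and 434 against 1138, 1802 and 2829. The rbcL signal, for the large subunit of Rubisco, was 6641, 7010 and 6898 against 8659, 10547 and 12073 (-0.61 ± 0.11), below all control arrays but under 2-fold.

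**Figure D4:**
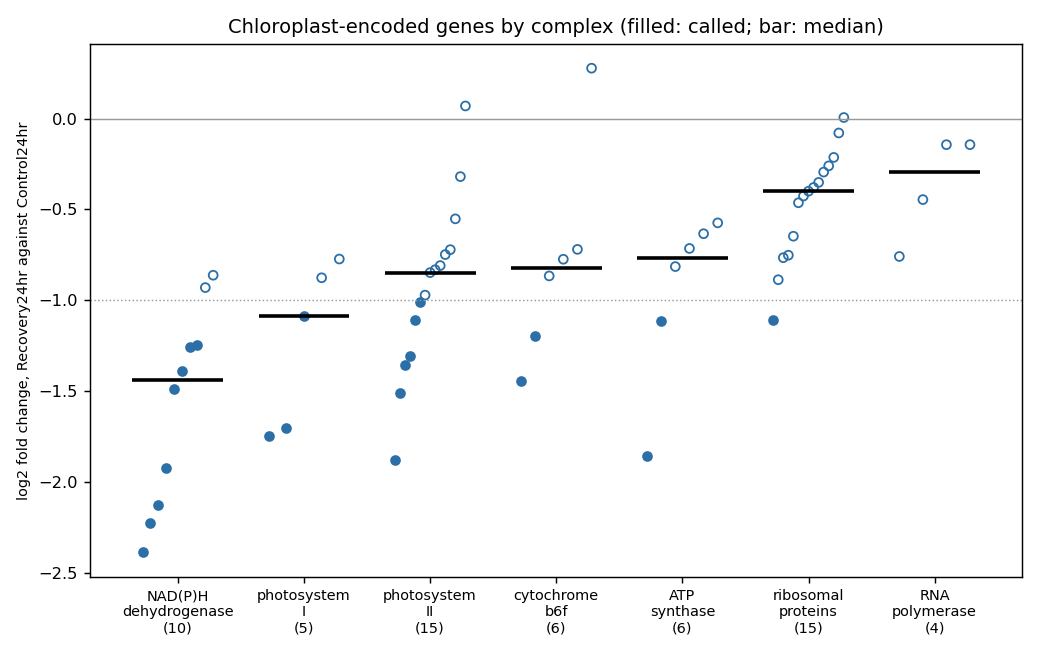
Log2 fold change of Recovery24hr against Control24hr for chloroplast-encoded genes by complex (number of probe sets in brackets), with filled points for those that fell and bars at the medians. The dotted line marks 2-fold. The median is -1.44 for NAD(P)H dehydrogenase and -0.29 for RNA polymerase.

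Of 2 named genes on the list of chlorophyll synthesis and early light-induced proteins (11 on the list), 1 rose and 1 fell. PORB, the light-dependent protochlorophyllide oxidoreductase, rose to 3548, 5880 and 7882 at Recovery24hr, against 1202, 1407 and 1665 in Control24hr (1.94 ± 0.20, adjusted p = 2.31e-05). In the afternoon controls (Control08hr) PORB had 11738, 12931 and 13962 as lowest, median and highest. CHLM, which methylates magnesium protoporphyrin, fell to 3353, 5472 and 7165, against 9793, 10569 and 11581 (-1.06 ± 0.17, adjusted p = 0.000525). Both groups of arrays were separate, and in both genes replicate 1 was the lowest of the Recovery24hr arrays. Under quantile normalization CHLM did not reach 2-fold (-0.81), nor without Recovery24hr replicate 1 (-0.76), and with the 20-day controls alone it did not pass (adjusted p = 0.0675).

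Clock genes differed from the controls of the same clock time. Of 5 named members (27 on the list), 3 rose and 1 fell. CCA1, the morning factor, had 1644, 884 and 727 at Recovery24hr and 3542, 4071 and 4928 in Control24hr, 4.07-fold lower (-2.03 ± 0.20, adjusted p = 1.87e-05). GI, an evening gene that helps time flowering, had 638, 775 and 719 against 156, 195 and 279 (1.86 ± 0.19, adjusted p = 2.58e-05). In unheated plants of 18 and 19 days the afternoon value (Control08hr) less the morning value (Control24hr) was -7.03 for CCA1 and 2.09 for GI on the log2 scale. ELF4, of the evening complex, had 86.3, 202 and 379 against 22.6, 44.3 and 70.3 (2.21 ± 0.43, adjusted p = 0.00178), and ELF3 of the same complex had 215, 275 and 286 against 31.5, 73.4 and 115 (1.91 ± 0.30, adjusted p = 0.000479). Their afternoon less morning values were 6.16 and 3.32. LKP2, a light-receiving F-box protein, had 158, 210 and 283 against 226, 277 and 385, with overlapping arrays (-0.46 ± 0.19, adjusted p = 0.0779).

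At Recovery08hr CCA1, GI, ELF4 and ELF3 stood on the other side of their own controls. CCA1 had 2684, 2745 and 2402 there, against 5.76, 36.2 and 76.9 (lowest, median and highest of 6) in Control08hr. GI had 39.2, 29.8 and 27.1 against 594, 876 and 1296. The difference between the recovery times, taken as Recovery24hr less Control24hr minus Recovery08hr less Control08hr, was -8.36 ± 0.71 for CCA1 (adjusted p = 2.33e-08), 6.63 ± 0.31 for GI (7.02e-12), 5.87 ± 0.51 for ELF4 (2.82e-08) and 3.13 ± 0.35 for ELF3 (1.0e-06). Over all probe sets this test called 2859 (12.6%) in the positive and 2250 (9.89%) in the negative direction.

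The same could be asked of all probe sets that differ between clock times in unheated plants, with no array shared between the 2 comparisons. For this Recovery24hr was set against the 20-day controls alone, which called 1212 (5.33%) higher and 1191 (5.24%) lower, and Control08hr against Control24hr of 18 and 19 days, which called 875 (3.85%) higher in the afternoon and 942 (4.14%) higher in the morning. Of the 875 afternoon probe sets, 318 (36.3%) were higher at Recovery24hr and 8 lower, with a median log2 fold change of 0.89. Of the 942 morning probe sets, 31 were higher and 355 (37.7%) lower, with a median of -0.86. Among the 20929 others, 4.12% were higher and 3.96% lower, with a median of -0.04. Afternoon probe sets made up 26.2% of the higher calls, morning probe sets 29.8% of the lower calls, and probe sets not called between clock times 71.2% of the higher and 69.5% of the lower calls. Across the 22746 probe sets Pearson's r between the 2 comparisons was 0.296 and Spearman's rho 0.272 (0.415 and 0.360 over the 13618 that averaged 100 or more). Probe sets are not independent replicates.

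**Figure D5:**
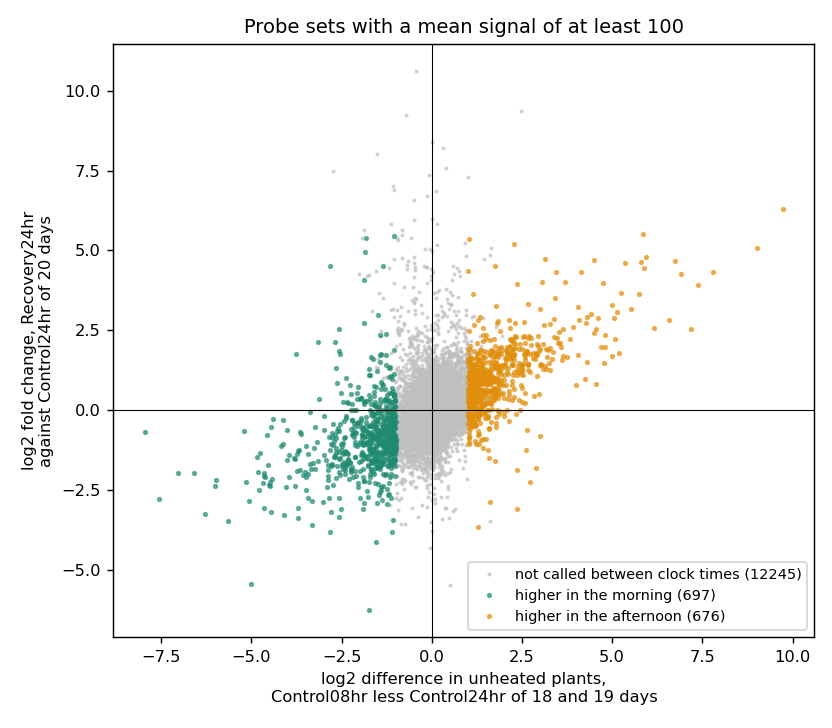
Log2 fold change of Recovery24hr against the 20-day controls (vertical) plotted against the log2 difference between the afternoon (Control08hr) and morning (Control24hr, 18 and 19 days) controls, for probe sets that averaged 100 or more. The 676 probe sets higher in the afternoon lie mostly above 0 and the 697 higher in the morning mostly below it. The other 12245 are grey.

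Genes of the cold and dehydration response were above their controls. Of 7 named members (26 on the list), 6 rose and 0 fell, with a median log2 fold change of 2.99 (1.92 with 16 added to each signal). COR15B, whose product protects chloroplast membranes, had 1881, 3195 and 7476 at Recovery24hr and 290, 435 and 625 in Control24hr (2.99 ± 0.36, adjusted p = 6.6e-05), and its neighbour in function COR15A had 5714, 5380 and 11819 against 2337, 3030 and 4114 (1.22 ± 0.24, adjusted p = 0.00224). LTI30, a dehydrin, had 1817, 924 and 2037 against 38.0, 74.3 and 154 (4.11 ± 0.44, adjusted p = 3.0e-05). COR47, also a dehydrin, had 6820, 4931 and 8392 against 1372, 1722 and 2050 (1.93 ± 0.16). No array overlapped in these 4, and replicate 3 was the highest of the Recovery24hr arrays in 6 of the 7 members. COR27, a night-phased regulator, had 87.1, 174 and 241 against 1.58, 4.6 and 8.99. Its controls lay near the lowest value of the table, so its log2 differences depended on the floor, with 5.28 as fitted and 3.08 with 16 added to each signal. AT4G33980, known here by its identifier, rose with overlapping arrays. RD20 (AT2G33380), a caleosin of lipid droplets, had 5850, 5179 and 5827 against 2961, 3648 and 5200 and a log2 fold change of 0.53. Without Recovery24hr replicate 3, COR15A did not reach 2-fold (0.85), and with the 20-day controls alone it did not pass (adjusted p = 0.0852).

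For COR15B the log2 fold change was -2.58 at Recovery08hr and -3.88 at Heat08hr, where the afternoon controls had 12808, 13947 and 16619 as lowest, median and highest. The difference between the recovery times was 5.57 ± 0.55 for COR15B (adjusted p = 1.73e-07), 2.88 ± 0.45 for COR15A (3.71e-05), 2.42 ± 0.40 for COR47 (7.82e-05), 3.24 ± 0.72 for LTI30 (0.00119) and 8.83 ± 0.64 for COR27 (2.88e-09). LTI30 was not lowered on every Recovery08hr array, with 3112, 4242 and 605 against 810, 1077 and 1551 in Control08hr. COR47 had 6609, 8964 and 2110 there, against 6318, 6987 and 8275. All of these members were higher in the afternoon than in the morning in unheated plants, by 2.05 (COR47) to 9.01 (COR27) on the log2 scale.

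Of 4 named starch and sugar genes, 3 rose and 1 fell. DPE1, the plastid disproportionating enzyme of starch breakdown, had 715, 967 and 1474 at Recovery24hr and 221, 249 and 318 in Control24hr (1.98 ± 0.19, adjusted p = 1.76e-05). PWD, which phosphorylates starch before its breakdown, had 1550, 2227 and 3272 against 456, 654 and 715 (1.85 ± 0.20, adjusted p = 3.04e-05). Neither overlapped. At Recovery08hr DPE1 had only 47.4, 42.9 and 136, against 2876, 2924 and 3353 in Control08hr, and the difference between the recovery times was 7.51 ± 0.37 (adjusted p = 1.6e-11). APL3, a large subunit of ADP-glucose pyrophosphorylase of starch synthesis, had 997, 1339 and 1087 against 274, 405 and 518 (1.5 ± 0.19, adjusted p = 0.000102), and it had also risen at Recovery08hr, with 1075, 1308 and 1434 against 228, 340 and 363. ATSPS4F, a sucrose phosphate synthase, fell to 505, 1116 and 1441, against 3438, 3679 and 4395 (-2.02 ± 0.24, adjusted p = 6.07e-05).

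Lists of growth-related genes that had been low at Heat24hr had medians near control, though some members stood far from it. Of 8 named expansins and xyloglucan enzymes, which loosen the cell wall, 2 rose and 1 fell, with a median log2 fold change of 0.14 at Recovery24hr and -3.32 at Heat24hr. With no fold limit 3 were higher and 1 lower than in Control24hr. Against Heat24hr, 6 of the 8 were higher at Recovery24hr and 1 lower. EXPA6, an expansin, had 2829, 2976 and 2212 at Recovery24hr and 2036, 2308 and 2568 in Control24hr (0.20 ± 0.11, adjusted p = 0.171), whereas it had 196, 166 and 196 at Heat24hr. EXPA4 overlapped the controls as well, with 2366, 1601 and 871 against 621, 846 and 939, and passed without replicate 3 (log2 fold change 1.27). EXPA8 was the 1 that fell, with 265, 529 and 769 against 3012, 3507 and 4875 (-2.92 ± 0.26, adjusted p = 8.67e-06), and it had been at 1.249, 10.1 and 3.26 at Heat24hr. XTH19, a xyloglucan endotransglucosylase, went the other way, with 1998, 847 and 552 against 15.2, 52.8 and 131 (4.32 ± 0.56, adjusted p = 0.000117). XTH18, its neighbour in the gene family, had 460, 376 and 106 against 6.60, 12.8 and 30.9 (4.21 ± 0.59, adjusted p = 0.000202). XTH18 had already been at 176, 292 and 190 at Heat24hr, where XTH19 was at 6.98, 7.56 and 4.40.

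Of 5 named cell cycle and DNA replication genes, 0 rose or fell, and with no fold limit 2 were higher and 1 lower. Their median was 0.01, against -2.35 at Heat24hr. PRL, a subunit of the replicative helicase, had 476, 613 and 761 at Recovery24hr and 517, 636 and 666 in Control24hr, with overlapping arrays (0.01 ± 0.14, adjusted p = 0.955). At Heat24hr it had 46.6, 16.8 and 66.3, and the log2 difference between Recovery24hr and Heat24hr was 4.02 ± 0.55 (adjusted p = 0.00317). MCM5, of the same helicase, lay above all controls with 307, 351 and 424 against 162, 204 and 266 (0.81 ± 0.15, adjusted p = 0.00152). Replicate 3 was the highest and replicate 1 the lowest Recovery24hr array for all 5.

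Of 4 named senescence genes 3 rose, and of 4 named salicylic acid and camalexin genes 2 rose, with none of these 8 fallen. Signals varied widely, also among controls. SAG13, a senescence-associated gene, had 1631, 1654 and 488 at Recovery24hr and 4.64, 32.4 and 690 in Control24hr (4.95 ± 1.08, adjusted p = 0.00371), so 1 control array overlapped. The highest control was the array of 18 days that stood apart, the next was at 38.6, and without that array the log2 fold change was 5.49 (adjusted p = 9.54e-05). PR1, a marker of salicylic acid defence, had 564, 2030 and 357 against 111, 158 and 3598, so the groups overlapped (1.81 ± 0.95, adjusted p = 0.162). Without that control array, whose neighbour was at 209, PR1 had a log2 fold change of 2.32 (adjusted p = 0.00186) and 3 of the 4 rose. CYP71A13, of camalexin synthesis, had 255, 708 and 231 against 5.24, 37.9 and 193 (3.32 ± 0.83, adjusted p = 0.0084), and without Recovery24hr replicate 2 its adjusted p was 0.0546. FRK1, a receptor-like kinase, and WRKY53 and WRKY6, transcription factors of senescence, rose with adjusted p-values of 0.0393, 0.0168 and 0.0201. With the 20-day controls alone FRK1 and WRKY53 did not pass (adjusted p of 0.0633 and 0.0587). Without Recovery24hr replicate 1 the adjusted p-values of FRK1, WRKY53 and WRKY6 were 0.0971, 0.0756 and 0.0894, and without replicate 2 they were 0.134, 0.0975 and 0.0578. FRK1 also failed without replicate 3 (0.0729) and without any 1 of 5 control arrays (0.0529 to 0.0587).

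Of 3 named jasmonate genes, JMT, which methylates jasmonic acid, fell to 29.0, 53.1 and 72.2, against 234, 296 and 365 (-2.57 ± 0.23, adjusted p = 8.89e-06), and at Recovery08hr it had 37.0, 57.1 and 130 against 5.15, 10.5 and 36.5. PDF1.2, a defensin, did not pass (52.8, 87.3 and 64.5 against 75.3, 113 and 817, adjusted p = 0.18). In the flavonoid list 3 of 5 fell and 0 rose. DFR, which commits the pathway to anthocyanins, had 58.9, 83.0 and 75.6 against 339, 501 and 1024 (-2.91 ± 0.29, adjusted p = 2.01e-05), and AT4G14090, known here by its identifier, had 16.4, 47.6 and 49.9 against 163, 276 and 427 (-2.98 ± 0.38). C4H, at the entry of the phenylpropanoid pathway, overlapped between groups (-0.19 ± 0.12, adjusted p = 0.229). BCAT4, which starts the chain elongation of methionine for glucosinolates, was the only named member of its list, with 1938, 2652 and 4630 against 5940, 6431 and 7810 (-1.21 ± 0.20, adjusted p = 0.000605), and it did not reach 2-fold without Recovery24hr replicate 1 (-0.92), nor pass with the 20-day controls alone (adjusted p = 0.0507).

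Of 6 genes that scavenge reactive oxygen, 0 rose and 2 fell. TAPX, the thylakoid ascorbate peroxidase, had 692, 1079 and 1513 at Recovery24hr and 2614, 3269 and 3862 in Control24hr (-1.62 ± 0.19, adjusted p = 5.69e-05). GR (AT3G54660), the plastid glutathione reductase, had 2287, 1828 and 2092 against 4127, 4356 and 4661 (-1.09 ± 0.08, adjusted p = 2.84e-06). The groups were separate in both. GR1, the other glutathione reductase, overlapped (-0.29 ± 0.10). SAPX, the stromal ascorbate peroxidase, was on the higher side, with a log2 fold change of 0.84 ± 0.27 (adjusted p = 0.0287), and passed 2-fold without Recovery24hr replicate 3 (1.15). Of 10 autophagy genes ATG8D, which marks autophagosome membranes, alone rose, to 615, 611 and 536 against 236, 269 and 315 (1.11 ± 0.09, adjusted p = 6.97e-06), and it had 2700, 2699 and 2018 at Heat24hr. Against Heat24hr, 6 of the 10 were lower at Recovery24hr and 1 higher. With no fold limit 2 were higher and 4 lower than in Control24hr. Of 3 auxin genes none passed, and GH3.3, which conjugates auxin, had 88.5, 255 and 65.4 against 18.24, 84.3 and 135, whereas it had 9238, 11709 and 6683 at Heat24hr. Of 2 iron genes BHLH101 fell, with overlap of no array but with an adjusted p of 0.111 against the 20-day controls alone.

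Families of detoxification and cell wall enzymes, picked by gene symbol after values were seen, held members in both directions. Over all probe sets 6.20% rose and 7.36% fell. Of 19 expansins and expansin-like proteins 3 rose (EXLA1, EXPA16 and EXPA20) and 3 fell (EXPA8, EXPB1 and EXPB3). Of 47 UDP-glycosyltransferases 12 rose and 5 fell, and of 26 glutathione S-transferases 6 rose and 3 fell. GSTU1 had 1637, 772 and 608 at Recovery24hr and 25.6, 42.1 and 98.0 in Control24hr (4.37 ± 0.43, adjusted p = 1.76e-05), with no overlap, and UGT73C1 had 377, 200 and 108 against 4.72, 9.72 and 26.0 (4.40 ± 0.53). GSTU20 lay below all controls, with 4998, 4479 and 5880 against 8559, 9596 and 10826, but under 2-fold (-0.89 ± 0.10). Of 42 cytochrome P450s 4 rose and 8 fell. Among 22 beta-glucosidases 5 rose and 1 fell, with BGLU44 at 5569, 7941 and 7098 against 1037, 1346 and 1643 (2.31 ± 0.16, adjusted p = 1.95e-06). Of 8 response regulators, which relay cytokinin signals, 0 rose and 3 fell, ARR15 to 39.6, 40.9 and 74.6 against 271, 422 and 589 (-3.07 ± 0.26, adjusted p = 7.08e-06). Of 23 trichome birefringence-like proteins, which acetylate wall polymers, 2 rose and 5 fell.

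Of the probe sets in the study's list of glycerolipid genes, beta-oxidation, the breakdown of fatty acids in peroxisomes, had the most rises. Over all probe sets 6.20% rose and 7.36% fell, and with no fold limit 18.1% were higher and 18.4% lower. Of 32 probe sets of TAG (triacylglycerol) degradation and beta-oxidation, 7 rose and 0 fell, and with no fold limit 18 were higher and 2 lower, with a median log2 fold change of 0.58. KAT2, the thiolase of the pathway, had 5116, 6087 and 5318 at Recovery24hr and 1776, 2102 and 2469 in Control24hr (1.41 ± 0.10, adjusted p = 2.95e-06). MFP2 and AIM1, the multifunctional proteins that act before it, had 2188, 1951 and 1471 against 535, 634 and 770 (1.55 ± 0.14), and 3517, 3462 and 4052 against 1600, 1680 and 1961 (1.1 ± 0.09). LACS7, which activates fatty acids in the peroxisome, had 1337, 896 and 705 against 258, 313 and 443 (1.52 ± 0.19, adjusted p = 8.43e-05). All arrays of these 4 were above the controls, with replicates closer to each other for KAT2 and AIM1 than for LACS7. The peroxisomal citrate synthases CSY2 and CSY3 rose as well, CSY2 to 985, 1020 and 816 against 266, 360 and 411 (1.45 ± 0.14, adjusted p = 1.78e-05). Their group, the TCA and glyoxylate cycles, went both ways. Of its 10 probe sets 2 rose and 2 fell, with a median log2 fold change of -0.49. With no fold limit 4 were higher and 4 lower. PMDH2 of the glyoxylate cycle was lower under every alternative (log2 fold change -1.55 to -1.01). Both phytyl ester synthases, PES1 and PES2, which store phytol and fatty acids during chlorophyll breakdown, rose, PES2 to 390, 364 and 125 against 34.5, 56.8 and 110 (2.15 ± 0.40, adjusted p = 0.00127). PES1 did not pass without Recovery24hr replicate 1 (adjusted p = 0.108) or replicate 2 (0.0565).

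Among 40 TAG synthesis probe sets 2 rose and 6 fell, and the 6 were dim. DGAT1, the acyltransferase that completes TAG, had 318, 338 and 364 at Recovery24hr and 75.7, 93.7 and 115 in Control24hr (1.87 ± 0.12, adjusted p = 1.5e-06), and 1193, 1313 and 1062 at Heat24hr. In phospholipid synthesis 1 of 46 rose and 5 fell, where 6.20% and 7.36% of all probe sets did. The one that rose was PECT1, which makes CDP-ethanolamine, with 1545, 1511 and 1500 against 454, 559 and 687 (1.45 ± 0.12, adjusted p = 6.16e-06). AT1G73600, listed in the same group, fell to 813, 814 and 1570, against 5668, 6300 and 7085 (-2.64 ± 0.17, adjusted p = 1.35e-06), and MIPS1, which makes inositol phosphate, to 2222, 2935 and 4034, against 8350, 10375 and 11280 (-1.75 ± 0.16, adjusted p = 9.47e-06). None of these overlapped. In plastid glycerolipid synthesis 0 of 36 rose and 2 fell, so the falls were near the share over all probe sets. With no fold limit 15 were lower and 2 higher, against 18.4% and 18.1% of all probe sets. FAD4, the desaturase of phosphatidylglycerol, fell to 259, 355 and 516, against 1422, 1788 and 2017 (-2.28 ± 0.17, adjusted p = 2.84e-06), and FAD7, which makes trienoic acids in the plastid, to 2601, 3971 and 5116, against 7070, 8947 and 11011 (-1.29 ± 0.19, adjusted p = 0.000255). The paired desaturase genes ADS1 and ADS2 moved apart, ADS1 to 162, 292 and 364 against 1506, 1878 and 2108 (-2.80 ± 0.20), and ADS2 to 2894, 2966 and 2828 against 544, 629 and 840 (2.17 ± 0.12, adjusted p = 5.77e-07). HPR of photorespiration, which the paper counts with the glyoxylate cycle, fell (-1.35 ± 0.13), but did not reach 2-fold under quantile normalization (-0.87).

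Over the time course, the probe sets that rose or fell at Recovery24hr were a mixture of those changed at Heat08hr or Recovery08hr and those not. Heat24hr shares the Control24hr arrays and was not counted here. Its median log2 fold change was 0.96 for the risen probe sets and -1.61 for the fallen ones. Heat08hr and Recovery08hr have controls of their own, which are not used at Recovery24hr. Of the 1410 that rose, 745 (52.8%) had also risen at Recovery08hr, 202 had fallen there and 463 had done neither. Of all probe sets, 14.0% rose and 17.1% fell at Recovery08hr. The 745 were 23.3% of the rises at Recovery08hr, whereas 6.20% of all probe sets rose at Recovery24hr. Of the 1674 that fell, 735 (43.9%) had fallen at Recovery08hr, 124 had risen there and 815 had done neither. The 735 were 18.9% of the falls at Recovery08hr, whereas 7.36% of all probe sets fell at Recovery24hr. At Heat08hr, where 8.38% of all probe sets rose and 16.3% fell, 285 of the 1410 had risen and 322 had fallen, and 425 of the 1674 had fallen and 117 had risen. In all 3 comparisons 231 were higher and 314 lower.

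Among the probe sets changed in the same direction at Heat08hr, Recovery08hr and Recovery24hr, the largest rises were AT1G48720, ATHSP22.0, AT2G29500 and EXLA1. The largest falls were AT1G66100, AT4G01390, AT2G47880 and AT3G16670. AT4G01390 had 8.05, 3.17 and 11.5 at Recovery24hr and 7.96, 3.25 and 3.55 at Recovery08hr, against 195, 302 and 415 in Control24hr and 329, 412 and 458 in Control08hr. Among those on opposite sides at the 2 recovery times were AT1G56300, COR27, AT4G34950 and DRM2 (AT2G33830), higher at Recovery24hr. DRM2, annotated as putatively auxin-regulated, had 945, 1365 and 1594 against 42.7, 61.3 and 120 at Recovery24hr, and 119, 157 and 109 against 6341, 7847 and 9532 at Recovery08hr. Its difference between the recovery times was 10.22 ± 0.38 (adjusted p = 3.96e-13). AT1G70985, AT2G15020, AT5G66740 and JMT were lower at Recovery24hr and higher at Recovery08hr. All 8 of these differed between clock times in unheated plants, by 4.48 to 9.01 on the log2 scale for those higher in the afternoon and by -3.71 to -5.65 for those higher in the morning. The choice of these genes used the same control arrays and favours such a difference, so it is no separate result.

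A smaller set had changed by under 1.5-fold at both Heat08hr and Recovery08hr: 86 of the 1410 and 196 of the 1674. The largest rises in it were AT2G38465, AT2G47890, AT1G73040 and AT4G33985, and the largest falls ASPGB1, SP1L4, AT4G24700 and AT1G18060. Heat24hr was not part of this choice, so these need not be new at Recovery24hr. At Heat24hr AT2G38465 had 949, 688 and 1015, against 1, 13.1 and 20.4 in Control24hr. AT4G33985 had 268, 293 and 333 there, against 3.01, 29.0 and 97.9. AT2G47890 had 317, 403 and 257 at Heat24hr, and AT1G73040 had 51.4, 34.9 and 233. The limit of 1.5-fold was taken against Control08hr, the afternoon controls. There AT2G38465 had 377, 515 and 683, AT4G33985 199, 273 and 296, and AT1G73040 138, 179 and 193 (lowest, median and highest). For AT2G38465, AT4G33985 and AT2G47890 little change at Heat08hr and Recovery08hr was thus measured from controls well above those of the morning. AT2G47890, annotated as a putative B-box zinc finger protein, had 422, 272 and 422 at Recovery24hr and 9.63, 23.1 and 66.4 in Control24hr (3.87 ± 0.55, adjusted p = 0.000227), against 698, 753 and 331 at Recovery08hr and 603, 633 and 730 in Control08hr. AT1G73040 had 616, 691 and 649 against 52.1, 84.9 and 119 (2.96 ± 0.29, adjusted p = 1.56e-05). ASPGB1, an asparaginase, had 88.9, 69.0 and 82.8 against 205, 317 and 404 (-1.92 ± 0.20, adjusted p = 2.63e-05). Separate arrays were a condition for being named here. The call of AT4G33985 was at the limit and was lost under quantile normalization (adjusted p = 0.0609), median centring (0.0536) and without any 1 of the Recovery24hr arrays (0.0964 to 0.141) or any 1 of 6 control arrays (0.0512 to 0.0686).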

How the data were processed

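The array intensities were deposited by the authors as linear MAS5 signals made in GeneSpring version 12, with a lowest value of 1 (1502 values on the 12 arrays). Their log2 was fitted with limma 3.58.1 in R 4.3.3 (lmFit and eBayes), with Benjamini-Hochberg adjustment over all 22746 probe sets. Recovery24hr was set against all Control24hr arrays, as in the methods, and tables and figures were made with Python 3.11.15, pandas 2.3.3, numpy 2.4.6 and matplotlib 3.10.9. The fit was tested on simulated data. Arrays give no read depth, and the number of arrays limits the precision. A single gene was known for 14380 probe sets.

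The members and gene lists were chosen with earlier results of these data known. Genes were named by rule: the 12 highest and 12 lowest log2 fold changes among called probe sets with 1 gene, separate arrays and a mean of 100 or more in the higher group, the largest changes and the brightest of each list (up to 4), every clock gene, and 4 per direction of each pattern over time. The others, the families and the split by chloroplast complex were chosen after their values were seen. Where a gene had more than 1 probe set, the brightest was taken. Chloroplast and mitochondrion genes were found by symbol. Alternatives were other controls, normalizations, filters, an added constant, a replicate block and leaving out each array. The labels do not say whether replicate numbers pair arrays, and the main fit treated the arrays as unpaired. Promoter motifs and lipid measurements were not analysed here.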

Additional observations from a re-analysis of the deposited data

Results flagged for a closer look

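Of 191 genes tested for a control array far from the other 8 on the linear signal, 17 had one. The limit used flags about 1 in 20 by chance only if values are normally distributed. That was not tested for the linear signal, so the 17 cannot be set against a chance rate. The array of 18 days and replicate 1 was the high one in 10 of them. There the signal was 503 for AT4G12490, 42.8 for AT3G17520, 252.6 for GSTU4, 690.1 for SAG13, 192.9 for CYP71A13, 3598 for PR1, 666.4 for CSY3, 1334 for CYP71B6, 280.1 for THI2.1 and 817 for PDF1.2. The next highest control arrays of these genes were at 46.2, 11.98, 32.4, 38.6, 70.6, 209, 459, 1093, 162 and 217, in the same order. Without that array the log2 fold change was 5.83 for GSTU4, 3.63 for CYP71A13, -0.80 for PDF1.2 (adjusted p = 0.0854) and 0.06 for THI2.1.

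The other 7 lay on other arrays. AT1G48720 (6.82) and XTH19 (131.1) were highest on the control array of 19 days and replicate 2, HSFA2 (47.1) and RR3 (643.9) on that of 19 days and replicate 1, and Hop3 (130.7), OLEO2 (61.8) and EXPA8 (4875) on that of 20 days and replicate 3.

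For 18 genes the change from control at Recovery24hr differed from that at Recovery08hr and had the opposite sign. The difference was positive for AT1G56300 (8.00), COR27 (8.83), AT4G34950 (5.43), AT2G33830 (10.22), COR15B (5.57), ELF4 (5.87), DPE1 (7.51), PORB (6.69), COR47 (2.42), ELF3 (3.13), GI (6.63), PWD (4.64) and COR15A (2.88) on the log2 scale. It was negative for CCA1 (-8.36), JMT (-5.17), AT5G66740 (-5.13), AT2G15020 (-6.55) and AT1G70985 (-6.72). For COR47 only replicate 3 lay below the controls at Recovery08hr (6609, 8964 and 2110, against 6318 to 8275 in Control08hr). The recovery times also differ in clock time, each with controls of its own.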

How the results depend on the processing

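Over all probe sets, 2307 to 3169 were called under the alternatives other than leaving out an array, against 3084, and 2411 (without Recovery24hr replicate 1) to 3663 (without Recovery24hr replicate 3) with 1 array left out. With no fold limit 6367 to 8361 were called with 1 array left out, and with the 20-day controls as the only ones, which leaves 3 against 3 arrays, 3898 against 8307. The difference between recovery times called 4573 to 5902, Recovery24hr against Heat24hr 6117 to 6747, and the gene lists 109 to 130 with 1 array left out. With the replicate block 1398 rose and 1664 fell, and correlations of same-numbered arrays were -0.160 to 0.277. Of the named genes, AT4G33985 alone lost its call under the block (adjusted p = 0.0516). With no fold limit, which calls more probe sets by construction, 4714 changed the same way and 1250 the opposite way at Recovery08hr (main values 1480 and 326), and 3180 and 2167 at Heat08hr (710 and 439). Among probe sets that averaged 100 or more in either group 1264 rose and 1043 fell, with 16 added to the signal 1274 rose and 1137 fell, and with the 20-day controls alone 1212 rose and 1191 fell, so rises outnumbered falls in these 3. The sign of the log2 fold change was the same under every alternative for the 127 called named genes. The median of 10 of 40 lists changed sign under at least 1 alternative, among them glutathione S-transferases (-0.14 with the 20-day controls alone, 0.15 with all) and beta-glucosidases (-0.15 and 0.12). Of the named genes, 22 lost and 6 gained a call under at least 1 alternative, and the medians of 22 lists moved by more than the spread between arrays. For dim probe sets such as that of OLEO2, adding 16 to the signal ended the call (adjusted p = 0.13).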
